A study of Mus musculus with 15 samples.

Results

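Lymphotoxin, tumour necrosis factor and related genes of the TNF and TNF receptor families were followed across resting, activated and plasmablast-enriched mouse B cells, with and without GSK-J4. The 9 genes (Ltb, Lta, Tnf, Tnfsf9, Tnfrsf8, Tnfrsf1b, Tnfrsf18, Cd70 and Cd27) were chosen by their gene symbols, with values of these same libraries already known, out of 21761 genes measured. The adjusted p-values below come from a fit to all genes; for the members they describe the size of a change against the spread between libraries and are not independent evidence of it. Of the 9, 8 passed the filter on low values and are among the 10866 genes tested; Cd70 did not pass and was not tested. Cd27 passed through its level in naive cells alone, and Tnfrsf8 through the cultured cells alone.

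The study sequenced poly(A) RNA of CD43- splenic B cells from female C57BL/6J mice, in 15 libraries, 3 in each of 5 groups. GSK-J4 is a small-molecule inhibitor of the H3K27 demethylases Kdm6a and Kdm6b, enzymes that remove a repressive methyl mark from histone H3, and DMSO is its solvent. Naive cells were neither stimulated nor given a drug. All cultured cells received LPS, IL-2 and IL-5 for 3 days, together with DMSO or with 250 nM GSK-J4, and were then magnetically enriched for GL7, a surface marker of activated B cells, or for CD138, the plasmablast marker encoded by Sdc1. This gave 4 cultured groups: GL7+ with DMSO, GL7+ with GSK-J4, CD138+ with DMSO and CD138+ with GSK-J4. The labels give mouse numbers 1 to 3 in every group, but 1 CD138+ GSK-J4 column of the table, numbered 4, could be tied to its group only and not to a mouse. The labels give no age for the mice.

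Values are RPKM, reads scaled to the length of the gene and the depth of the library, so levels can be compared between genes. Between 1318002 and 13190023 reads per library were assigned to genes; the shallowest library was that of naive mouse 2, and the CD138+ GSK-J4 libraries held 6241186 to 7712473 reads against at least 9174696 in the other cultured libraries. Sdc1, the gene of the CD138 label, averaged 32.6 RPKM in CD138+ DMSO, 1.37 RPKM in GL7+ DMSO and 3.13 RPKM in naive cells. The B cell markers Cd79a, Cd79b, Ms4a1 and Pax5 together stood at 741 RPKM or more in every library. No marker of the GL7 label was examined. In bulk RNA, fewer cells that express a gene and less of its RNA per cell cannot be told apart.

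TNF family ligands are trimeric membrane proteins, some of them shed, that cluster receptors on neighbouring cells. Lymphotoxin beta anchors lymphotoxin alpha in the membrane as a mixed trimer that signals through the lymphotoxin beta receptor and shapes B cell follicles and follicular dendritic cell networks, while lymphotoxin alpha alone is secreted and, like TNF, binds the TNF receptors. Receptors without a death domain recruit TRAF adaptors, which feed the NF-kB and MAP kinase pathways.

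The 3 genes Ltb, Tnf and Lta are neighbours on chromosome 17, and Tnfrsf1b and Tnfrsf8 are neighbours on chromosome 4. The windows below are shown because the 3 clustered genes took different courses over the groups and because Tnfrsf8 rose from naive to GL7+ to CD138+ cells under DMSO, where Ltb fell. They are the 250 bases before the RefSeq transcription start (build GRCm38.p6; the expression table was made on mm9), printed 5′ to 3′ on the gene's strand: chr17:35194257-35194506 on the plus strand for Ltb, chr17:35202008-35202257 on the minus strand for Tnf, chr17:35205352-35205601 on the minus strand for Lta and chr4:145315165-145315414 on the minus strand for Tnfrsf8. Capitals mark matches to the kappa B consensus, the motif read by NF-kB dimers.
Ltb: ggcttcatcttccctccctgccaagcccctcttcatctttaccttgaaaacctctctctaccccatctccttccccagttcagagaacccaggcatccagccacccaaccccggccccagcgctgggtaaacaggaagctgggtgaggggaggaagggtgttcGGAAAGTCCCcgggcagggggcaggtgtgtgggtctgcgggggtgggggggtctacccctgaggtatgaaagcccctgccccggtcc
Tnf: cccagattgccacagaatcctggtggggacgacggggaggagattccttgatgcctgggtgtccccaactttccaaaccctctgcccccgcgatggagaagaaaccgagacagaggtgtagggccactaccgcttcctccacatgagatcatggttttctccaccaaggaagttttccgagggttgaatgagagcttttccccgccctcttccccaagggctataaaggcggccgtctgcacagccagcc
Lta: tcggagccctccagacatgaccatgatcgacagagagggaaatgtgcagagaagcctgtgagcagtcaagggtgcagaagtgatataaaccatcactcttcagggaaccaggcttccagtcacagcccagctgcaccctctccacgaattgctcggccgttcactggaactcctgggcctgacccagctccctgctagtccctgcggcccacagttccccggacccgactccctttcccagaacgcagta
Tnfrsf8: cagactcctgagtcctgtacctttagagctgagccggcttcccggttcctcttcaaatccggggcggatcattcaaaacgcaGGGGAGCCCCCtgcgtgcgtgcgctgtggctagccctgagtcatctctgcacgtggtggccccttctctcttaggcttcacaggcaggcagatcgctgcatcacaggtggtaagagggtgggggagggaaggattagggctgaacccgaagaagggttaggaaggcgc
Ltb held 1 kappa B match, 87 to 78 bases before its start, and Tnfrsf8 held 2 overlapping match positions, 168 to 159 and 167 to 158 bases before its start. Tnf and Lta held none in these windows. A TATAAA box lay 29 to 24 bases before the Tnf start and 167 to 162 bases before the Lta start, and an AP-1 motif (TGANTCA) lay 132 to 126 bases before the Tnfrsf8 start. With both strands searched, 7.25% of 32851 promoter windows of this length held a kappa B match, 6.75% an AP-1 motif and 12.4% a TATAAA. Of the 9 members 7 had a window in the RefSeq table, and those of Tnfrsf1b, Tnfrsf18 and Cd27 held none of the 3 motifs. These are matches of letters and no measurement of binding.

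Ltb, the membrane anchor of the lymphotoxin trimer, was the most abundant TNF ligand in all 5 groups and fell at every step of the design. It stood at 119.9, 121 and 125 RPKM in naive cells, at 42.8, 39.4 and 35.9 RPKM in GL7+ DMSO cells and at 12.5, 12.8 and 10.03 RPKM in CD138+ DMSO cells. With GSK-J4 it stood at 18.1, 12.9 and 12.6 RPKM in GL7+ cells and at 4.43, 3.36 and 2.94 RPKM in CD138+ cells. The only neighbours in the order of levels whose libraries overlapped were GL7+ GSK-J4 and CD138+ DMSO cells, with means of 14.5 and 11.8 RPKM. GSK-J4 lowered the mean from 39.4 ± 3.44 to 14.5 ± 3.09 RPKM (SD, n = 3) in GL7+ cells, a log2 change of -1.39 ± 0.13 (SE, limma adjusted p = 7.2e-05). In CD138+ cells the limma estimate was -1.49 ± 0.13, and the 2 effects differed by -0.09 (95% interval -0.50 to 0.32, adjusted p = 0.9). As a ratio of summed reads corrected for depth, GSK-J4 left 0.365 of the Ltb signal in GL7+ cells (1069 against 3048 reads, 95% exact interval 0.340 to 0.392) and 0.302 in CD138+ cells (173 against 893 reads, 0.255 to 0.355). These intervals, and those below for other genes, cover counting error only.

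Lta, the lymphotoxin subunit that can be secreted, shared the fall of Ltb from naive to cultured cells but not its response to GSK-J4 in GL7+ cells. Its naive libraries held 24.1, 33.5 and 27.0 RPKM. GL7+ cells held 6.09, 6.76 and 7.37 RPKM with DMSO and 6.09, 5.52 and 7.52 RPKM with GSK-J4, so the groups overlapped. Among CD138+ cells the DMSO libraries held 1.94, 1.24 and 1.19 RPKM and the GSK-J4 libraries 0.579, 0.563 and 0.106 RPKM, without overlap. The CD138+ GSK-J4 values rest on 5, 6 and 1 reads. The limma log2 change was -0.08 (95% interval -0.42 to 0.27, adjusted p = 0.82) in GL7+ cells and -0.80 ± 0.16 (SE, adjusted p = 0.0053) in CD138+ cells. The depth-corrected read ratio was 0.966 (282 against 304 reads, exact interval 0.818 to 1.14) in GL7+ cells and 0.292 (12 against 64 reads, 0.143 to 0.546) in CD138+ cells. The difference between the fractions, -0.73 (95% interval -1.22 to -0.23), did not pass over all genes (adjusted p = 0.16). The CD138+ call was lost in a fit that blocked on the mouse (-0.62, adjusted p = 0.051) and with every library thinned to the shallowest (-0.97, adjusted p = 0.068).

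The balance of the 2 lymphotoxin subunits was lower in every GL7+ GSK-J4 library than in any GL7+ DMSO library. The ratio of Ltb to Lta RPKM was 7.03, 5.83 and 4.87 with DMSO and 2.97, 2.34 and 1.67 with GSK-J4. Its log2 mean was 2.55 with DMSO and 1.18 with GSK-J4, a difference of -1.37 (exact permutation test, two-sided, p = 0.1, the smallest value that 3 against 3 libraries allow). This ratio was chosen after its values were seen. Naive cells had ratios of 4.98, 3.62 and 4.62, and CD138+ DMSO cells 6.45, 10.3 and 8.46. In CD138+ GSK-J4 cells the ratio was 7.65, 5.98 and 27.8, and the last of these rests on 1 Lta read.

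Tnf, the inflammatory cytokine between the lymphotoxin genes, was the member of the cluster with its peak in activated cells. It stood at 3.95, 3.18 and 4.95 RPKM in naive cells, at 12.8, 13.97 and 16.7 RPKM in GL7+ DMSO cells and at 2.72, 2.06 and 2.29 RPKM in CD138+ DMSO cells. The GSK-J4 libraries held 10.5, 7.64 and 10.1 RPKM in GL7+ cells, all below the DMSO libraries. In CD138+ cells they held 2.21, 0.777 and 0.793 RPKM, of which the library of mouse 1 lay within the DMSO range. Neither GSK-J4 change passed the limma test: -0.57 (95% interval -1.01 to -0.14, adjusted p = 0.078) in GL7+ cells and -0.62 (-1.06 to -0.19, adjusted p = 0.058) in CD138+ cells. The depth-corrected read ratios were 0.663 (501 against 787 reads, exact interval 0.591 to 0.742) and 0.519 (42 against 126 reads, 0.357 to 0.741). Both values were near the threshold and crossed it under several alternatives, among them limma voom on the recovered reads (-0.60, adjusted p = 0.0013 in GL7+ cells; -1.06, adjusted p = 0.039 in CD138+ cells) and the fit without the CD138+ GSK-J4 library of mouse 1 (-0.91, adjusted p = 0.003 in CD138+ cells; -0.57, adjusted p = 0.019 in GL7+ cells). Without the naive library of mouse 2, the shallowest, the adjusted p was 0.035 in CD138+ and 0.048 in GL7+ cells. With every library thinned to the shallowest the CD138+ value was 0.03 (adjusted p = 0.98).

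**Figure D1:**
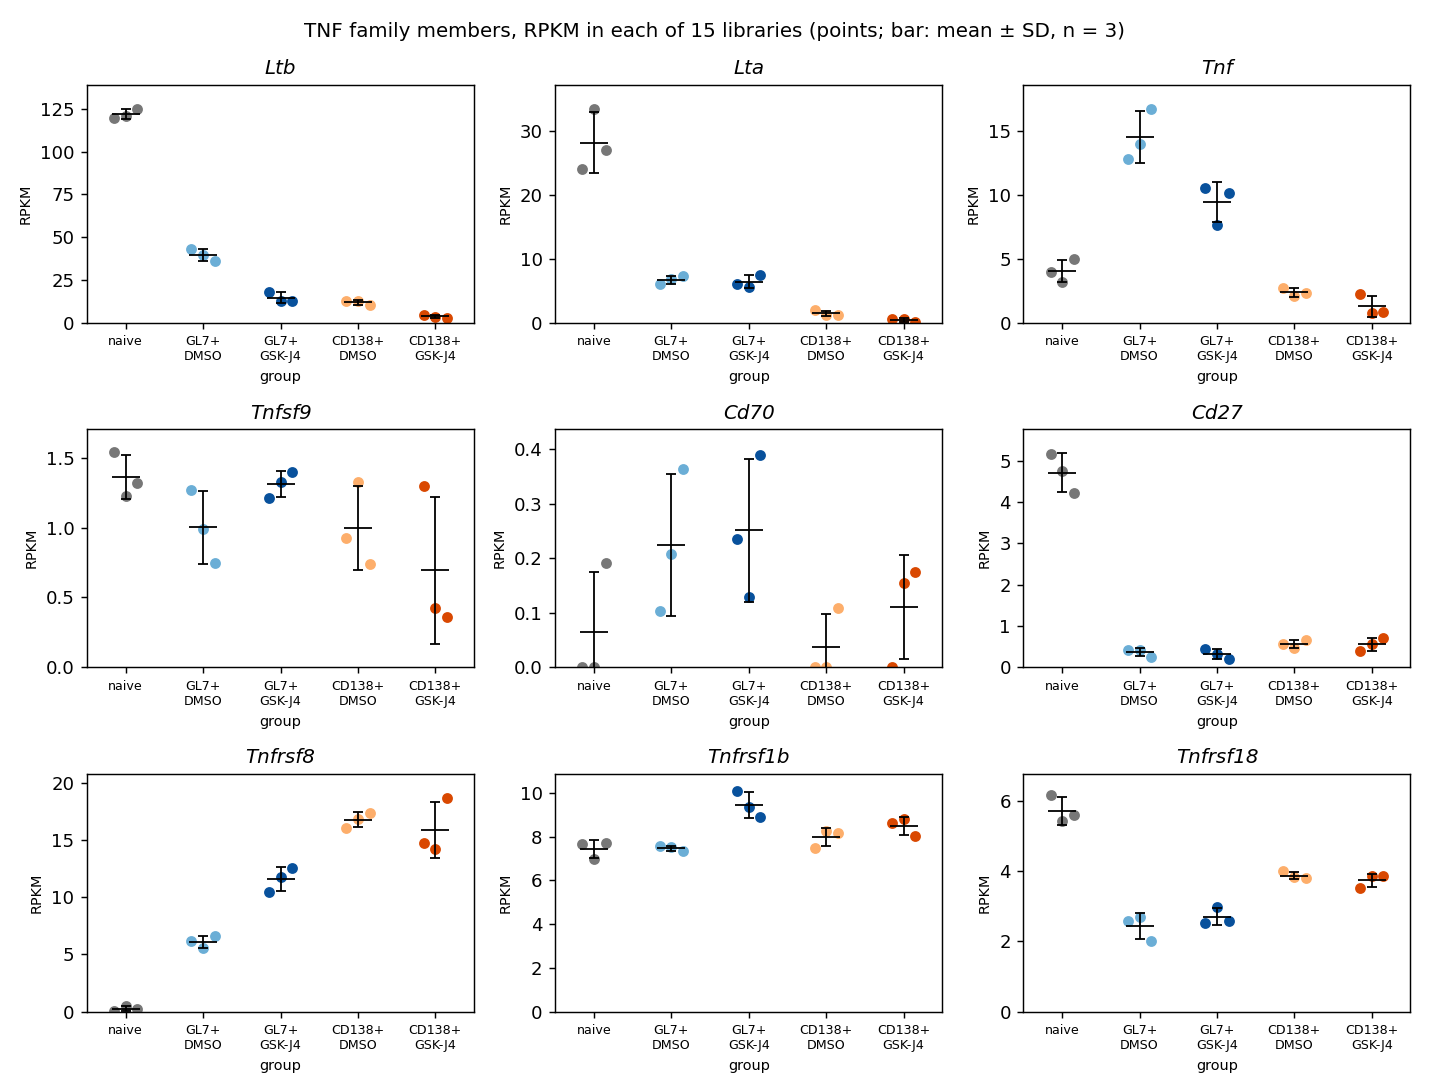
RPKM (vertical axes, linear, from 0) of the 9 members in 5 groups of 3 libraries (horizontal axes); points are libraries, and bars are the mean ± SD. Ltb and Lta are highest in naive cells, Tnf in GL7+ DMSO cells (mean 14.5 RPKM) and Tnfrsf8 in CD138+ cells (means 16.8 and 15.9 RPKM).

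The genes on either side of the cluster did not share one course. Lst1, a leukocyte transcript next to Ltb, averaged 6.09 RPKM in naive, 1.87 in GL7+ DMSO and 0.613 RPKM in GL7+ GSK-J4 cells, and it fell with GSK-J4 in GL7+ cells (limma log2 change -0.82 ± 0.22 SE, adjusted p = 0.023). The GL7+ values rest on few reads: 10, 11 and 14 with DMSO and 5, 3 and 3 with GSK-J4. In CD138+ cells the change of Lst1 was -0.54 (adjusted p = 0.13), from a mean of 0.585 RPKM and at most 6 reads per library. Nfkbil1, on the far side of Lta, averaged between 5.67 and 7.39 RPKM in all 5 groups, with GSK-J4 changes of -0.33 (adjusted p = 0.13) in GL7+ and -0.04 (adjusted p = 0.89) in CD138+ cells. Within the run of 5 genes, the mean of Ltb spanned 122 to 3.58 RPKM over the groups while that of Nfkbil1 stayed within this narrow band.

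**Figure D2:**
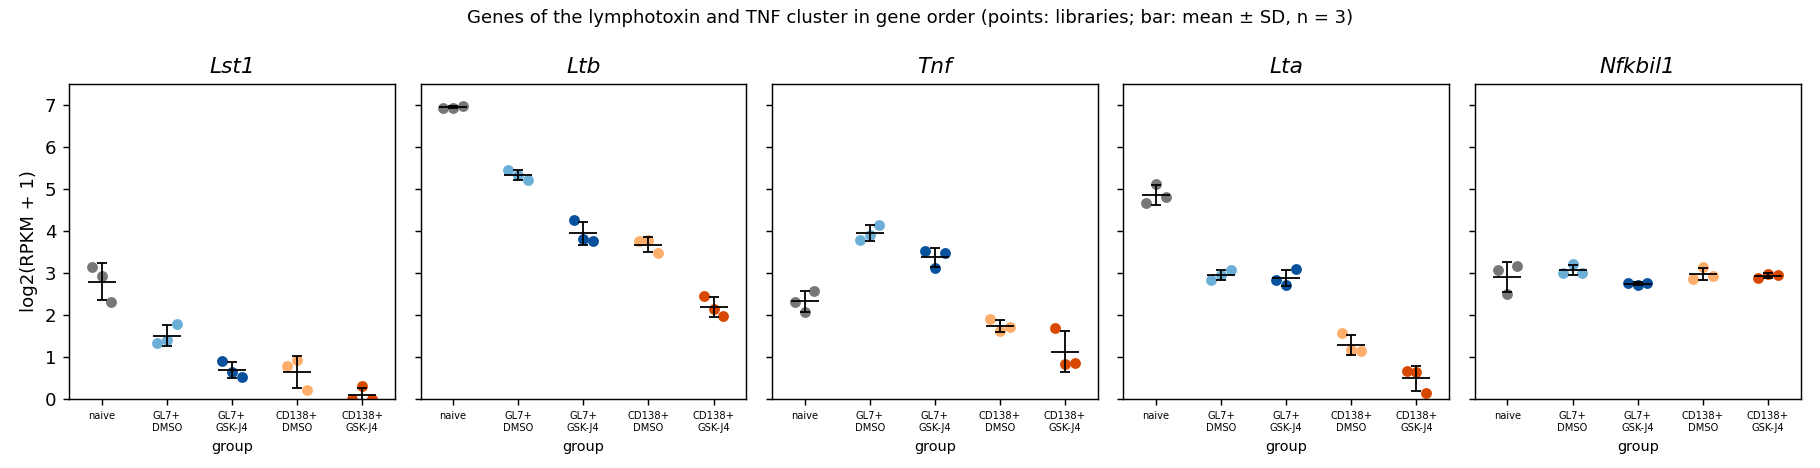
log2(RPKM + 1) (shared vertical axis) of 5 adjacent genes in chromosomal order, by group (horizontal axis, 3 libraries each); points are libraries, and bars are the mean ± SD. Ltb descends through the groups, Lta is level between the 2 GL7+ groups, Tnf peaks in GL7+ cells and Nfkbil1 stays near its naive level.

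The 2 co-stimulatory ligands among the members were scarce. Tnfsf9 encodes 4-1BB ligand, which co-stimulates T cells. Its libraries ranged from 0.359 to 1.54 RPKM, and every pair of neighbouring groups overlapped. In CD138+ cells it stood at 0.924, 1.33 and 0.741 RPKM with DMSO and at 1.302, 0.422 and 0.359 RPKM with GSK-J4, a limma change of -0.27 (95% interval -0.64 to 0.10, adjusted p = 0.35). Without the CD138+ GSK-J4 library of mouse 1 that change was -0.51 (adjusted p = 0.029). In GL7+ cells the change was 0.21 (-0.16 to 0.58, adjusted p = 0.47). Gm11110 overlaps Tnfsf9, and without a stated strand their reads cannot be told apart. Cd70, the ligand of Cd27, had 0 to 4 reads per library and at most 0.390 RPKM. It had 0 reads in 5 libraries. There a count of 0 allows up to 0.270 RPKM (3 reads) in naive mouse 1 and 2.70 RPKM in the shallow library of naive mouse 2, up to 0.368 and 0.306 RPKM in CD138+ DMSO mice 1 and 2, and up to 0.571 RPKM in CD138+ GSK-J4 mouse 1. Differences in Cd70 were therefore not detectable at this depth.

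Tnfrsf8, which encodes CD30, a TRAF-binding receptor of activated lymphocytes, was lowest in naive and highest in CD138+ cells, the reverse of the order of Ltb under DMSO. It had 1, 1 and 2 reads in the naive libraries (0.0470, 0.473 and 0.202 RPKM). GL7+ DMSO cells held 6.17, 5.56 and 6.62 RPKM and CD138+ DMSO cells 16.1, 16.9 and 17.4 RPKM. With GSK-J4, GL7+ cells held 10.5, 11.8 and 12.6 RPKM, above all their DMSO libraries and below all CD138+ libraries. The CD138+ GSK-J4 libraries held 14.8, 14.2 and 18.7 RPKM and overlapped their DMSO controls. GSK-J4 raised the mean in GL7+ cells from 6.12 ± 0.530 to 11.6 ± 1.09 RPKM (SD, n = 3), a log2 change of 0.82 ± 0.12 (SE, limma adjusted p = 8.8e-04) and a depth-corrected read ratio of 1.92 (589 against 320 reads, exact interval 1.67 to 2.20). In CD138+ cells the change was -0.08 (95% interval -0.34 to 0.18, adjusted p = 0.73) and the read ratio 0.945 (0.846 to 1.05). The 2 effects differed by -0.90 (95% interval -1.27 to -0.54, limma adjusted p = 0.027). The GL7+ call was lost with a pseudocount of 0.1 (0.91, adjusted p = 0.087) and with thinned libraries (0.72, adjusted p = 0.084). The difference was lost under these as well (adjusted p = 0.37 and 0.51), with no filter (adjusted p = 0.057), and when 1 of 9 among the 12 cultured libraries was left out (each of the 6 DMSO libraries, GL7+ GSK-J4 of mouse 2 or 3, or CD138+ GSK-J4 of mouse 2; adjusted p from 0.052 to 0.083).

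Tnfrsf1b, which encodes TNFR2, the TNF receptor without a death domain, was the steadiest member. Naive cells held 7.67, 6.96 and 7.71 RPKM, GL7+ DMSO cells 7.57, 7.52 and 7.34 RPKM and CD138+ DMSO cells 7.49, 8.26 and 8.19 RPKM. The GL7+ GSK-J4 libraries, at 10.1, 9.37 and 8.91 RPKM, lay above every other library. Their change against DMSO was 0.30 ± 0.06 on the log2 scale (SE, limma adjusted p = 0.0079), and it did not pass with thinned libraries (0.32, adjusted p = 0.21). CD138+ GSK-J4 cells held 8.63, 8.81 and 8.03 RPKM, overlapping their controls (0.08, 95% interval -0.06 to 0.22, adjusted p = 0.47). The difference between the fractions was -0.22 (adjusted p = 0.3). Tnfrsf1a, the death-domain TNF receptor, averaged 3.26 RPKM in naive cells, 0.0403 in GL7+ DMSO cells and 0 in GL7+ GSK-J4 cells, and 0.734 and 0.876 RPKM in CD138+ cells. Ltbr, the lymphotoxin beta receptor, averaged 0.803 RPKM in naive and at most 0.211 RPKM in cultured cells.

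Tnfrsf18, which encodes the co-stimulatory receptor GITR, was highest in naive cells at 6.19, 5.43 and 5.60 RPKM. It was lowest in GL7+ cells, at 2.59, 2.71 and 2.005 RPKM with DMSO and 2.54, 2.99 and 2.59 RPKM with GSK-J4, and intermediate in CD138+ cells, at 4.003, 3.84 and 3.80 RPKM with DMSO and 3.53, 3.86 and 3.86 RPKM with GSK-J4. The GSK-J4 libraries overlapped their controls in both fractions, with limma changes of 0.11 (95% interval -0.07 to 0.30, adjusted p = 0.43) and -0.04 (-0.23 to 0.15, adjusted p = 0.83). Cd27, the receptor of CD70 and a marker of memory B cells and plasma cells in humans, stood at 5.16, 4.76 and 4.22 RPKM in naive cells. In the 12 cultured libraries it ranged from 0.197 to 0.710 RPKM (5 to 15 reads), and all neighbouring cultured groups overlapped. Its GSK-J4 changes were -0.05 (-0.28 to 0.18, adjusted p = 0.8) in GL7+ and 0.00 (-0.23 to 0.22, adjusted p = 0.99) in CD138+ cells. The long noncoding transcript E130112N10Rik overlaps Cd27, so their reads may be shared.

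**Figure D3:**
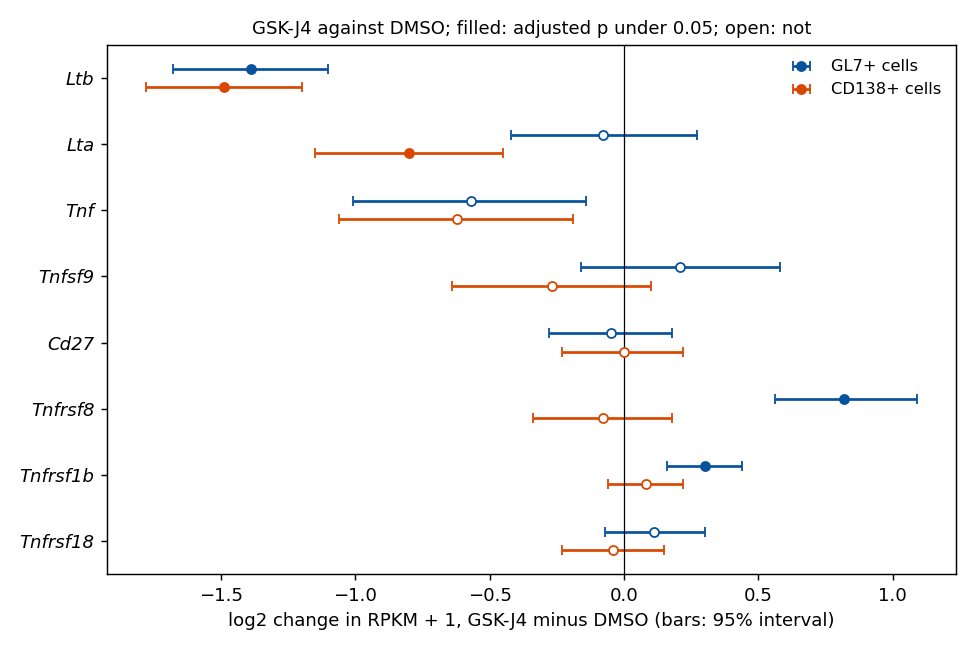
Limma log2 change in RPKM + 1 between GSK-J4 and DMSO (horizontal axis) of the 8 tested members (vertical axis) in GL7+ and CD138+ cells; bars are 95% intervals, filled points have an adjusted p under 0.05 and open points do not. Ltb lies at -1.39 and -1.49, Lta at -0.08 in GL7+ and -0.80 in CD138+ cells, and Tnfrsf8 at 0.82 in GL7+ cells.

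Counted over the 8 tested members, GSK-J4 lowered 1 (Ltb) and raised 2 (Tnfrsf8 and Tnfrsf1b) in GL7+ cells, where 7.71% of all tested genes passed in the lower and 5.81% in the higher direction. In CD138+ cells it lowered 2 (Ltb and Lta) and raised 0 (also 0 at an unadjusted limma p under 0.05), against 8.61% of all tested genes lower and 4.61% higher. For the difference between the fractions 1 member passed, Tnfrsf8, in the lower direction (0.644% of all tested genes lower, 0.322% higher). The shares of all genes cannot be read against counts this small and chosen in this way. B cell and plasmablast markers moved with these results. In GL7+ cells all 5 plasmablast markers rose with GSK-J4 (Sdc1 by 0.71, Prdm1, Jchain, Irf4 and Xbp1 by 0.34 to 0.40 on the log2 scale), their summed level going from 598 to 659 RPKM with DMSO to 773 to 868 RPKM with GSK-J4, and 1 of 4 B cell markers fell (Cd79b, -0.38), with B cell marker sums of 1341 to 1389 RPKM with DMSO and 1038 to 1167 RPKM with GSK-J4. The dendritic cell and progenitor marker Flt3 fell with GSK-J4 in both fractions, from means of 31.6 to 20.9 RPKM in GL7+ cells (-0.58, adjusted p = 0.0082) and of 9.78 to 5.64 RPKM in CD138+ cells (-0.70, adjusted p = 0.0022). In CD138+ cells 3 of 4 B cell markers fell (Pax5 -0.99, Ms4a1 -0.61, Cd79b -0.22), with sums of 906 to 967 RPKM with DMSO and 741 to 777 RPKM with GSK-J4, and 0 of 5 plasmablast markers passed. The part of these shifts in the members' changes was not tested.

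The comparison of cell states under DMSO asked how the members differ between CD138+ and GL7+ cells. All 3 clustered cytokine genes were lower in CD138+ cells: Tnf by the most (log2 change -2.20 ± 0.20 SE, limma adjusted p = 3.6e-07), then Lta (-1.67 ± 0.16, adjusted p = 6.3e-07) and Ltb (-1.66 ± 0.13, adjusted p = 9.5e-08). Tnfrsf8 (1.32 ± 0.12, adjusted p = 3.5e-07) and Tnfrsf18 (0.51 ± 0.09, adjusted p = 1.4e-04) were higher, the latter not with thinned libraries (0.63, adjusted p = 0.1). That made 3 members lower and 2 higher, where 36.9% of all tested genes were lower and 21.8% higher. Cd27 changed by 0.19 (95% interval -0.04 to 0.42, adjusted p = 0.14), which passed with thinned libraries (0.81, adjusted p = 0.022). The thinned value rests on a single random draw from few reads. Before thinning, Cd27 had 5 to 10 reads per GL7+ DMSO and 11 to 15 per CD138+ DMSO library. The plasmablast marker sum was 2849 to 3063 RPKM in CD138+ and 598 to 659 RPKM in GL7+ DMSO cells, and that of the B cell markers 906 to 967 against 1341 to 1389 RPKM. The part of enrichment purity in these differences was not tested.

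Against naive cells, most members changed in both cultured DMSO groups, as did most genes. In GL7+ cells 2 members were higher, Tnfrsf8 (2.53, limma adjusted p = 5.2e-11) and Tnf (1.63, adjusted p = 2.8e-06), and 4 were lower: Cd27 (-2.07), Lta (-1.91), Ltb (-1.61) and Tnfrsf18 (-0.98). Of all tested genes 41.3% were higher and 40.3% lower. In CD138+ cells Tnfrsf8 alone was higher (3.85, adjusted p = 3.2e-13), and 5 were lower: Lta (-3.57), Ltb (-3.27), Cd27 (-1.88), Tnf (-0.57, adjusted p = 0.017) and Tnfrsf18 (-0.46, adjusted p = 1.6e-04), with 39.9% of all tested genes higher and 43.5% lower. Tnfrsf8 and Cd27 passed the filter only through the groups where they are high, so they had to differ here, and nothing is read from these counts. The Tnf call was lost with quantile normalization (-0.38, adjusted p = 0.091), without naive mouse 3 (-0.44, adjusted p = 0.078) and without CD138+ DMSO mouse 2 (-0.51, adjusted p = 0.059); that of Tnfrsf18 was lost with thinned libraries (-0.65, adjusted p = 0.054). Both comparisons use the same naive libraries. Naive libraries also held more RNA of other cell types: the 9 T cell markers summed to 23.5 to 29.7 RPKM there and to at most 4.70 RPKM in cultured libraries, the 8 myeloid markers measured to 59.0 to 95.5 against at most 4.32 RPKM, and the 6 NK cell markers to 5.09 to 5.80 against at most 0.533 RPKM. Most of the T cell sum came from Lck, at means of 15.7 RPKM in naive and 3.18 RPKM in GL7+ DMSO cells. Of the defining markers, Cd3e averaged 0.786 RPKM in naive cells and 0 in all 4 cultured groups, and Lyz2 61.7 RPKM against at most 1.89 RPKM. Of 5 myeloid markers tested, 4 were lower in GL7+ DMSO and 5 in CD138+ DMSO than in naive cells. The exception was Itgam, at means of 2.83 RPKM in naive, 2.71 RPKM in GL7+ DMSO and 0.486 RPKM in CD138+ DMSO cells. Members such as Lta, Tnfrsf18, Cd27 and Tnf are also expressed by T or myeloid cells. The part of other cell types in the naive levels of all members, Ltb included, was not tested. For the 6 dendritic cell markers the sums were 27.4 to 30.6 RPKM in naive and 31.3 to 33.1 RPKM in GL7+ DMSO libraries, the latter almost all from Flt3. These similar sums hide opposite courses: of 4 such markers tested, 1 was higher and 3 were lower in GL7+ DMSO than in naive cells. Flt3 averaged 6.35 RPKM in naive and 31.6 RPKM in GL7+ DMSO cells. Itgax averaged 14.1 against 0.0230 RPKM and Clec9a 4.61 against 0 RPKM.

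Set among their families, the members made up most of the ligand RNA and little of the receptor RNA. The 18 TNF family ligands had a summed mean of 159.8 RPKM in naive cells, 64.1 and 35.1 RPKM in GL7+ cells with DMSO and GSK-J4, and 20.02 and 10.01 RPKM in CD138+ cells. Ltb made up 76.3% of that sum in naive cells, 61.4% and 41.4% in GL7+ cells and 58.8% and 35.8% in CD138+ cells. In CD138+ GSK-J4 cells Tnfsf10, which encodes the death ligand TRAIL, came second at 2.94 RPKM; its GSK-J4 change there was 0.28 (limma adjusted p = 0.076). The 28 receptors summed to 288 RPKM in naive cells and 311 to 374 RPKM in cultured cells. They were led by Tnfrsf13b and Tnfrsf13c, which encode TACI and the BAFF receptor, and Tnfrsf8 came next after them in CD138+ cells with 5.4% and 5.0% of the sum. Under DMSO, Tnfrsf17, which encodes BCMA, was higher in CD138+ than in GL7+ cells (3.26, limma adjusted p = 6.8e-10), as was Tnfrsf1a from its lower level (0.74, adjusted p = 6.9e-05), and Cd40 was lower (-1.46, adjusted p = 1.2e-09).

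**Figure D4:**
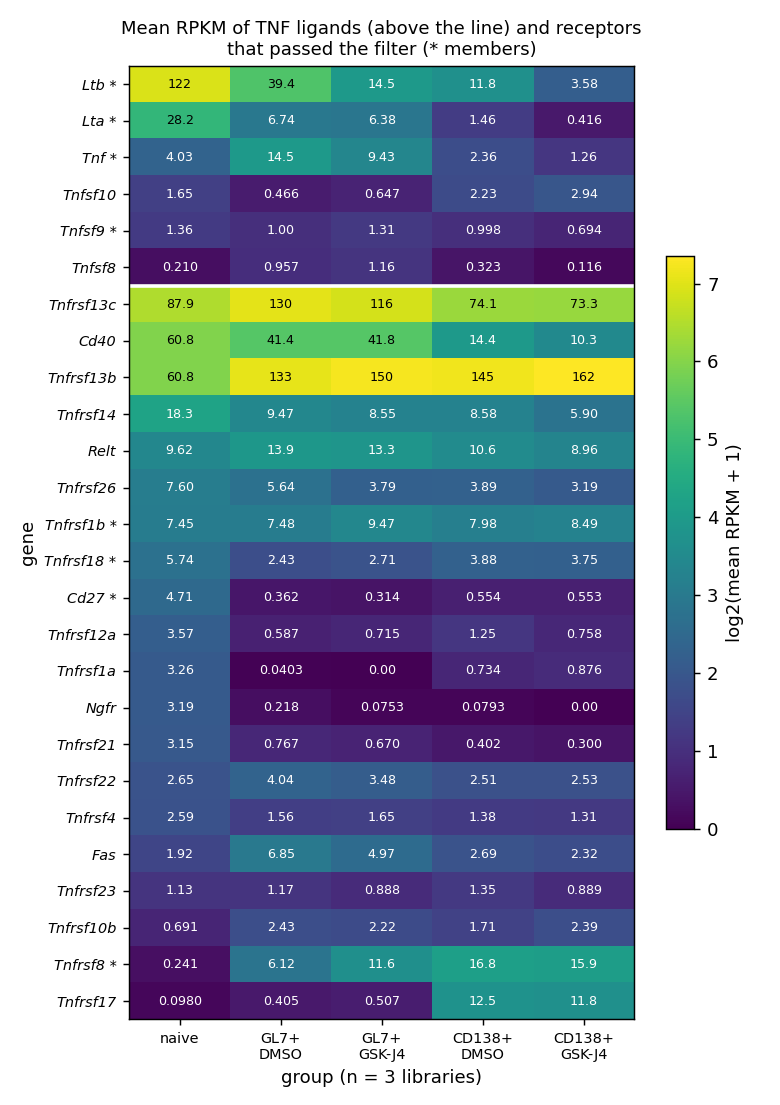
Mean RPKM (numbers; colour, log2 of the mean + 1) of the TNF ligands and receptors that passed the filter, in rows, over the 5 groups of 3 libraries, in columns; asterisks mark members. Ltb and Lta lead the ligands in naive cells, and Tnfrsf8 and Tnfrsf17 are the receptors that go from under 1 RPKM in naive to over 10 RPKM in CD138+ cells.

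In the wider pathway the counts below stand beside 4.61% of all tested genes higher and 8.61% lower with GSK-J4 in CD138+ cells, and 5.81% higher and 7.71% lower in GL7+ cells. Of 20 receptors tested 1 rose and 1 fell in CD138+ cells: Tnfrsf10b, a TRAIL receptor (0.33, limma adjusted p = 0.033), and Cd40, the receptor for T cell help (-0.45, adjusted p = 0.0019). In GL7+ cells the receptors that fell were Tnfrsf26 (-0.48, adjusted p = 0.0077) and Tnfrsf13c (-0.16, adjusted p = 0.021), and the 2 that rose were members. The list median over receptors was -0.08 in CD138+ and -0.06 in GL7+ cells, beside -0.03 and -0.01 over all tested genes. Tnfrsf10b held at most 2.70 RPKM in any library, so it failed the filter at 5 RPKM and could not be called there. The count of receptors higher in CD138+ cells was 0 with the mouse block, at 5 RPKM, with thinned libraries and without any 1 of 4 libraries (CD138+ DMSO mouse 1 or 3, CD138+ GSK-J4 mouse 1 or the library numbered 4), and 2 with voom and without naive mouse 2. The lower count there was 0 when thinned, and 2 with voom, with only the groups compared and without naive mouse 2. That of receptors lower in GL7+ cells was 1 with TMM, when thinned and without GL7+ DMSO mouse 1 or 2 or GL7+ GSK-J4 mouse 2 or 3, and 4 with voom. Of the 29 TRAF adaptors and receptor-proximal signalling genes, 4 fell in CD138+ cells, Traf1 (-0.51, adjusted p = 0.0024), the ubiquitin ligase Birc3 (-0.30), Rbck1 (-0.30) and the NF-kB inhibitor Tnfaip3 (-0.23), and 1 rose, the kinase gene Map3k7 (0.18, adjusted p = 0.017). In GL7+ cells Birc3 (-0.33) and Map3k14 (-0.33) fell and Map3k7 rose (0.19, adjusted p = 0.013); the list medians were -0.04 in CD138+ and -0.06 in GL7+ cells. The lower count in CD138+ cells moved from 4 to 8 without naive mouse 2, and to 2 without CD138+ DMSO mouse 2 and with thinned libraries. The higher count there was 0 when thinned and without any 1 of the 3 CD138+ DMSO libraries or CD138+ GSK-J4 mouse 1 or 2, 2 under the block or without naive mouse 2, and 3 with voom or with only the groups compared. In GL7+ cells the lower count was 1 with quantile normalization, when thinned and without GL7+ DMSO mouse 1 or 2 or GL7+ GSK-J4 mouse 2 or 3, and 4 with voom. The higher count there was 0 when thinned or without GL7+ DMSO mouse 2, and 2 with voom, with only the groups compared or without naive mouse 2.

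The alternative NF-kB pathway, which the lymphotoxin beta receptor and CD40 engage through Map3k14 (NIK), had 8 genes tested. Of these 3 fell in CD138+ cells, namely Nfkb2 (-0.39, limma adjusted p = 3.9e-04), Relb (-0.30, adjusted p = 0.025) and Birc3, and 4 fell in GL7+ cells, namely Nfkb2 (-0.39, adjusted p = 6.4e-04), Relb (-0.32, adjusted p = 0.016), Map3k14 (adjusted p = 0.017) and Birc3 (adjusted p = 0.002). The background is that given above for all tested genes. Map3k14, Chuk, Traf2, Traf3, Birc2 and Birc3 are also on the list of TRAF adaptors and receptor-proximal signalling genes. The falls of Birc3 and Map3k14 are therefore counted in both lists. In the higher direction 0 of the 8 passed in either fraction, with 0 in CD138+ and 1 in GL7+ cells at an unadjusted limma p under 0.05. Chuk, the gene of the kinase IKK alpha, held 33.1 to 34.02 RPKM with DMSO and 37.2 to 38.5 RPKM with GSK-J4 in GL7+ cells (0.16, adjusted p = 0.1), and 1 gene of the list passed as higher there with voom, with only the groups compared and without naive mouse 2. The list medians were -0.25 in CD138+ and -0.24 in GL7+ cells. The lower count in CD138+ cells was 5 without naive mouse 2 and 1 with thinned libraries. In GL7+ cells it was 2 without GL7+ DMSO mouse 1 or 2 or GL7+ GSK-J4 mouse 2 or 3, and 1 when thinned. Under DMSO 5 of the 8 were lower in CD138+ than in GL7+ cells and 0 higher (1 with quantile normalization, with only the groups compared and without naive mouse 2), where 36.9% of all tested genes were lower and 21.8% higher. Nfkb2 and Relb encode the subunits p100/p52 and RelB.

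TNF messenger RNA is turned over by proteins that bind its AU-rich element, and TNF protein is shed by Adam17 with the help of Rhbdf2. The list drawn up for these steps also holds regulators that act in other ways, such as Elavl1 and Mapkapk2. Of its 13 genes tested, 3 fell with GSK-J4 in GL7+ cells: Zfp36l1 (-0.53, limma adjusted p = 5.5e-04), Zfp36 (-0.46, adjusted p = 0.0033), the gene of tristetraprolin, and Rhbdf2 (-0.29, adjusted p = 0.042). In CD138+ cells 1 passed in each direction: Zfp36 was higher (0.34, adjusted p = 0.018) and Zc3h12a, which encodes an RNase, just lower (-0.17, adjusted p = 0.047). The higher count was 0 with thinned libraries and without CD138+ DMSO mouse 2 or CD138+ GSK-J4 mouse 2. The lower count was 0 with the mouse block, quantile normalization, only the groups compared, thinned libraries and any 1 of 9 libraries left out (the 3 CD138+ DMSO, the 3 GL7+ DMSO, GL7+ GSK-J4 mouse 1 and the CD138+ GSK-J4 libraries numbered 2 and 4). It was 2 with pseudocount 0.1, no filter, 5 RPKM and TMM, and without naive mouse 1 or 2. The difference between the fractions passed in the higher direction for Zfp36 (0.81, adjusted p = 0.011) and Zfp36l1 (0.52, adjusted p = 0.028), where 0.322% of all tested genes were higher and 0.644% lower. That count of 2 was 1 with the block, with no filter and without any 1 of 8 libraries (the 3 CD138+ DMSO, CD138+ GSK-J4 mouse 2, GL7+ DMSO mouse 1 or 3 and GL7+ GSK-J4 mouse 2 or 3), and 0 when thinned. The list medians were -0.09 in GL7+ and -0.01 in CD138+ cells.

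The genes whose log2 levels ran most like a member's over the 15 libraries, by Pearson r, are given as a description. These correlations share the 5 groups and the libraries' depth. The GSK-J4 and DMSO libraries were among those used to pick the genes. Their own GSK-J4 calls therefore largely follow from the choice, and nothing is read from them. For Ltb they were Acot2 (0.994), Dennd5a (0.993) and the aldehyde dehydrogenase gene Aldh2 (0.986), and all 3 fell with GSK-J4 in both fractions by the limma test (Aldh2 by -0.68 in GL7+ and -0.58 in CD138+ cells). For Lta they were the B cell scaffold gene Bank1 (0.995), Kmo (0.994) and Vps37b (0.994), which fell with GSK-J4 in CD138+ cells (-0.64, -0.57 and -0.42). For Tnf they were Pdcd6 (0.983), Fcrl5 (0.978) and Morf4l1 (0.977). Tnfrsf8 was most like Ube2e3 (0.990), Mcph1 (0.989) and Nploc4 (0.989), Tnfrsf18 most like Tgfbr1 (0.981), Pgghg (0.972) and Abhd17b (0.972), and Cd27 most like Socs5, Zfp335 and Abca1 (0.992 each). Tnfsf9 and Tnfrsf1b had no close match, with Snora61 (0.864) and Map3k7 (0.833) as the nearest. Among the members themselves r was 0.94 for Ltb with Lta, 0.49 for Ltb with Tnf, -0.91 for Ltb with Tnfrsf8, -0.90 for Tnfrsf8 with Cd27 and 0.86 for Tnfrsf18 with Cd27.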

How the data were processed

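Poly(A) RNA-seq of 15 libraries was available as 1 table of RPKM per gene made by the authors, deposited with gene lengths in bases. TopHat2 and the mm9 build are named in the submitters' processing notes; the aligner version, read counter, annotation, strand setting and filters were not given in the sources used here. RPKM times length in kilobases summed to 1000000 per library, and low values (up to 20 reads) were whole multiples of 1 read within 0.1 read in at least 99.913% of cases, which gave reads and depth. In the shallowest library, naive mouse 2, 59.8% of these low values were odd multiples, within the range of the other libraries (58.6% to 61.4%), so its step is that of 1 read and not of 2. Per the labels' protocols RNA was taken after 3 days of culture.

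A gene entered the test when 3 or more libraries reached 1 RPKM, and was tested on log2(RPKM + 1), a scale that understates the changes of low genes, with limma 3.58.1 in R 4.3.3: a mean per group over all 15 libraries, trended variance, Benjamini-Hochberg adjustment over all 10866 genes, threshold 0.05. Intervals are 95%. The exact permutation test was coded directly in Python 3.11.15. Exact intervals of the read ratios are binomial, from scipy 1.17.1, and figures used matplotlib 3.10.9. The test was tried on simulated data. Gene order and promoters came from RefSeq tables of GRCm38.p6 (21615 of 21761 identifiers matched).

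The members and lists were chosen with earlier results of these data known. Named genes were all members, with others drawn from the 3 genes with the highest r per member, the genes next to each member and up to 4 genes of each list with the smallest adjusted p. Not every gene under that rule is printed. A few beyond it (Ltbr, Tnfrsf1a, Tnfsf10 and the markers) are named for their role after their values were seen. Alternatives were a mouse block, pseudocount 0.1, no filter or 5 RPKM, TMM, quantile normalization, voom on recovered reads, only the groups compared, each library left out and, added after seeing the data, thinning to the shallowest depth. Thinned values come from a single random draw. Equal replicate numbers stand for the same mouse per the labels and therefore pair libraries across groups; after subtracting group means, r had a median of 0.07 (26 pairs, -0.04 to 0.19) within a mouse and -0.03 (52 pairs) between mice. P-values measure the spread between these libraries. Of the B cell markers, 1 gene is not reported here and stayed out of the sums and counts.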

Additional observations from a re-analysis of the deposited data

Results flagged for a closer look

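The GSK-J4 effect on Tnfrsf8 (CD30) differed between the fractions: the log2 change in CD138+ cells minus that in GL7+ cells was -0.90 (limma adjusted p = 0.027, interaction of drug and fraction). Means went from 6.12 to 11.6 RPKM in GL7+ cells and from 16.8 to 15.9 RPKM in CD138+ cells. The value is drawn from 3 libraries in each of the 4 groups. This call was lost with a pseudocount of 0.1, with no filter and with thinned libraries. As given above, it was also lost when certain cultured libraries were left out singly.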

How the results depend on the processing

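Ltb passed the limma threshold in the same direction in both GSK-J4 comparisons under all 24 alternatives. With the mouse as a replicate block the CD138+ count of members went from 2 to 1 (Lta lost, as above) and the GL7+ count from 3 to 4 (Tnf gained, -0.57, adjusted p = 0.028), with 1, 5, 6 and 6 members in the other comparisons; no other member's call changed under the block. The CD138+ library without a mouse is fitted exactly there, so that value rests on the other libraries of its group. For the difference between the fractions the count was 1, and 0 with pseudocount 0.1, 0 with no filter and 0 when thinned, where 3 members had an unadjusted limma p under 0.05 as reported. Thinning also took the CD138+ and GL7+ counts to 1 each. With single libraries left out the counts ran from 2 to 4 in CD138+ cells (4 without the GSK-J4 library of mouse 1), 3 to 4 in GL7+ cells, 0 to 1 for the difference, 5 to 5 for CD138+ against GL7+, 5 to 6 for GL7+ against naive and 4 to 6 for CD138+ against naive cells. Cd27 could not be tested without any 1 naive library or at 5 RPKM, since it then failed the filter. Of all genes called in CD138+ cells 34.9% were higher, and 46.7% after quantile normalization; for the difference 33.3%, and 21.5% with TMM.

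Signs turned only in member results that had not passed the threshold as reported. The Tnf difference became 0.16 with the block, 0.00 with quantile normalization and 0.57 thinned, and the Cd27 difference -0.06 with the block and -0.31 thinned. Tnfsf9 in CD138+ against GL7+ cells became 0.02 with TMM and 0.02 with quantile normalization, and Tnfrsf1b in GL7+ against naive cells -0.03 with voom. In CD138+ cells Tnfrsf18 became 0.04 and Cd27 0.15 with quantile normalization, and Cd27 0.02 with voom. Thinned values there were 0.03 for Tnf, 0.39 for Tnfsf9, 0.02 for Tnfrsf8 and 0.10 for Tnfrsf18; thinned Cd27 was 0.11 in GL7+ cells, and thinned differences were 0.13 for Tnfsf9 and 0.02 for Tnfrsf18. With single libraries left out the ranges that crossed 0 were -0.22 to 0.06 (Ltb), -0.33 to 0.09 (Tnf) and -0.02 to 0.13 (Cd27) for the difference, -0.18 to 0.01 (Lta) and -0.12 to 0.01 (Cd27) in GL7+ cells, -0.08 to 0.07 (Cd27) in CD138+ cells, -0.12 to 0.09 (Tnfsf9) for CD138+ against GL7+ and -0.04 to 0.03 (Tnfrsf1b) for GL7+ against naive cells. The cause of these turns was not tested. Depth limits Cd70 (0 to 4 reads per library) and Lta in CD138+ GSK-J4 cells (1 to 6 reads).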
